A study of Homo sapiens with 6 samples.

Results

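Cadherins, catenins and the scaffold protein ZO-1 are proteins of cell-cell junctions. They were examined here as a group of 10 genes: CDH1, CDH2, CDH3, CDH4, CDH11, CDH13, CTNNA1, CTNNB1, CTNND1 and TJP1. The members were all probe sets that the array's annotation assigns to 1 of these gene symbols, which gave 14 of the 22215 probe sets tested and covered 7 of the 10 genes. A further 3 probe sets carry CTNND1 together with the read-through gene TMX2-CTNND1. They are described apart and are not counted among the 14. No probe set is named for CDH4 or CDH13 in that annotation, and both genes were not analysed here. RNA came from SUM-159, a human triple-negative breast cancer cell line, stably transfected with an SH3GL2 insert in pcDNA 3.1 (3 arrays) or with the empty vector (3 arrays). Each sample was hybridized to a 1-colour Affymetrix U133A 2.0 array. SH3GL2 encodes endophilin A1, a membrane-bending protein of endocytosis. Neither the labels nor the methods say whether the transfected cells of these arrays were 1 clone or a pool, or whether the triplicates were separate cultures, so the p-values measure the spread between these arrays, which may be technical.

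In an adherens junction, cadherins of neighbouring cells bind each other outside the membrane. Inside, p120 catenin (CTNND1) holds the cadherin at the surface, beta-catenin (CTNNB1) binds its tail, and alpha-catenin (CTNNA1) joins that complex to actin. E-cadherin (CDH1) marks epithelial breast cells, whereas N-cadherin (CDH2) is typical of mesenchymal cells, and the exchange of E-cadherin for N-cadherin is known as the cadherin switch of epithelial-mesenchymal transition. ZO-1 (TJP1) is a scaffold of tight junctions that also binds alpha-catenin.

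The deposited values are log2 signals without detection calls, so 71 probe sets of genes expressed in organs other than breast served to show what a probe set reads where its transcript is missing. Over the 6 arrays their mean signals centred on 4.67, the median, while 6.89 was their 95th percentile, and a probe set was taken as above the reference where a group mean exceeded that percentile. By this measure 52.6% of all probe sets were above it. Markers were read against the label of the line. Of 20 probe sets for mesenchymal genes 16 were above the reference, with VIM, encoding vimentin, at 14.58 in SH3GL2 cells and 14.68 in empty vector cells. Of the same 20, 6 (30%) fell in SH3GL2 cells at an adjusted p under 0.05 in limma, beside 2.18% of all probe sets. All 6 were of FN1, encoding fibronectin, or SPARC, a matrix protein. FN1 had 12.93 in SH3GL2 cells and 13.27 in empty vector cells at 212464_s_at. SPARC had 9.27 in SH3GL2 cells and 9.73 in empty vector cells at 212667_at. No probe set of VIM, CD44, LGALS1 or COL1A2 passed. The part of the FN1 and SPARC differences in the results below was not tested. Of 12 probe sets for ESR1, PGR and ERBB2, 1 was above it, a probe set of ERBB2 with means of 8.45 in SH3GL2 cells and 8.50 in empty vector cells. None of 13 leukocyte and endothelial probe sets was above it, at means of 3.43 to 6.32 in SH3GL2 cells and 3.52 to 6.20 in empty vector cells. The only probe set of SH3GL2 itself had means of 3.26 in SH3GL2 cells and 3.22 in empty vector cells, both below the reference median, and so gave no check of the labels.

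None of the 14 member probe sets passed the test between the groups. Signal above the reference was seen for CDH2, CTNNA1, CTNNB1 and TJP1 and at the shared CTNND1 probe sets, but not for CDH1, CDH3 or CDH11. Both groups of SUM-159 cells thus gave N-cadherin, catenin and ZO-1 signals without a signal of E-, P- or OB-cadherin above the reference. With limma, at a threshold of 0.05 for the p adjusted over all 22215 probe sets, 0 members were called higher and 0 lower. At an unadjusted p under 0.05 these counts were 0 higher and 3 lower, beside 1831 higher and 1693 lower of all 22215 probe sets. The 3 were CDH2 203440_at and both TJP1 probe sets, so they are not independent. A one-way analysis of variance, adjusted over all probe sets, called 0. Over all probe sets limma called 4.17%, with 1.99% higher and 2.18% lower in SH3GL2 cells. In these bulk samples fewer cells with a transcript and less RNA per cell cannot be told apart. Of the 14 probe sets 6 are of the _s_at and 3 of the _x_at type, whose probes can also match other transcripts.

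**Figure D1:**
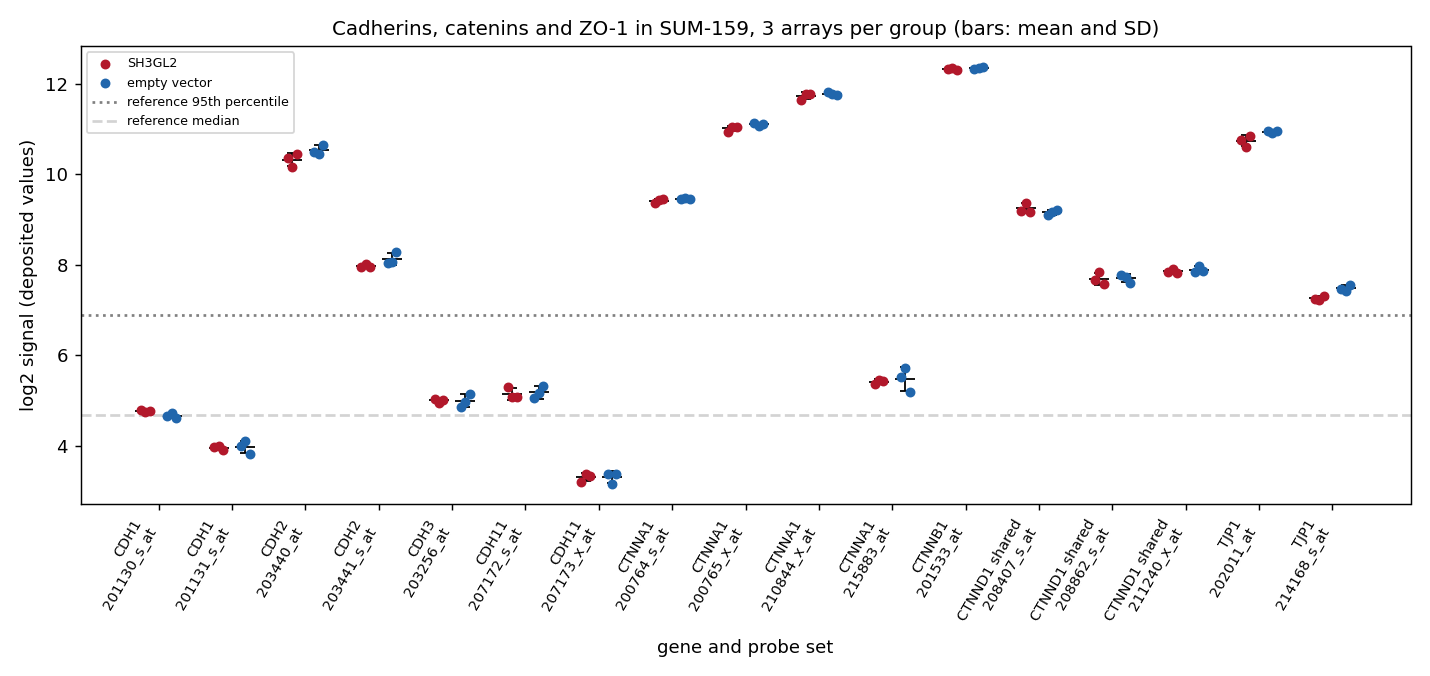
Log2 signal (vertical axis, deposited values) of the 14 member probe sets and the 3 shared CTNND1 probe sets in SH3GL2 cells (red) and empty vector cells (blue), with 1 point per array and bars for mean and SD (n = 3). The dotted line at 6.89 and the dashed line at 4.67 are the 95th percentile and the median of the reference probe sets, and both CDH1, the CDH3, both CDH11 and 1 of the 4 CTNNA1 probe sets lie below the dotted line in every array.

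E-cadherin, the defining cadherin of epithelia, gave signals of 4.79, 4.75 and 4.77 in SH3GL2 cells at its first probe set (201130_s_at), against 4.67, 4.72 and 4.62 in empty vector cells. The arrays of the groups did not overlap, but all 6 lay near the reference median. The difference of 0.10 on the log2 scale (standard error 0.09) did not pass limma (adjusted p = 0.672). At its other probe set (201131_s_at) CDH1 averaged 3.96 ± 0.05 in SH3GL2 cells and 3.98 ± 0.14 in empty vector cells (SD, n = 3 each), with every array below the reference median. The 95% interval of the difference at 201130_s_at ran from -0.09 to 0.29 on the log2 scale. As both means were at the level of genes of other organs, that interval bounds the signal and not the transcript.

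P-cadherin (CDH3), which basal and myoepithelial breast cells make and whose gene lies next to CDH1 on chromosome 16, had 5.04, 4.96 and 5.02 in SH3GL2 cells, against 4.87, 4.98 and 5.15 in empty vector cells. The groups overlapped, and differed by a log2 fold change of 0.01 in limma (adjusted p = 0.985). CDH11, the OB-cadherin of osteoblasts and other mesenchymal cells, had means of 5.15 ± 0.13 in SH3GL2 cells and 5.18 ± 0.14 in empty vector cells (SD, n = 3 each) at 207172_s_at. At 207173_x_at both of its means were 3.31. Neither probe set of CDH11 was above the reference, and the log2 fold changes were -0.03 and 0.00.

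N-cadherin (CDH2) was the only member cadherin with a signal above the reference. At 203440_at it had 10.35, 10.16 and 10.45 in SH3GL2 cells, against 10.48, 10.45 and 10.65 in empty vector cells. The groups met at 10.45, the highest SH3GL2 and the lowest empty vector value. The log2 fold change was -0.21 (standard error 0.08, 95% interval -0.38 to -0.03), a ratio of 0.867, and did not pass over all probe sets (adjusted p = 0.210, limma). It was -0.13 without SH3GL2 replicate 2 and -0.14 without empty vector replicate 3. At 203441_s_at the signals were 7.95, 8.01 and 7.96 in SH3GL2 cells, against 8.05, 8.07 and 8.28 in empty vector cells. All SH3GL2 values lay below all empty vector values there, by -0.16 on the log2 scale (adjusted p = 0.395), which was -0.09 without empty vector replicate 3. The intervals of the 2 probe sets allow a decrease of CDH2 to ratios of 0.768 and 0.789.

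Beta-catenin (CTNNB1), which also carries Wnt signals to the nucleus, had 12.31, 12.34 and 12.29 in SH3GL2 cells, against 12.33, 12.34 and 12.37 in empty vector cells. The groups overlapped, and limma gave a log2 fold change of -0.03 with a 95% interval of -0.13 to 0.06 (standard error 0.04, adjusted p = 0.799). A change of the CTNNB1 signal beyond ratios of 0.915 and 1.04 lay outside that interval, the narrowest of the member probe sets. Alpha-catenin (CTNNA1) was above the reference at 3 of its 4 probe sets. At 200765_x_at it had 10.94, 11.04 and 11.05 in SH3GL2 cells, against 11.12, 11.06 and 11.11 in empty vector cells, without overlap and at -0.09 on the log2 scale (adjusted p = 0.508). The log2 fold changes at 200764_s_at and 210844_x_at were -0.05 each, with overlapping groups. The remaining CTNNA1 probe set, 215883_at, was below the reference, at means of 5.42 in SH3GL2 cells and 5.48 in empty vector cells.

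The 3 probe sets shared by CTNND1 and TMX2-CTNND1 were all above the reference and cannot separate these genes. At 208407_s_at they gave 9.19, 9.37 and 9.17 in SH3GL2 cells, against 9.10, 9.17 and 9.20 in empty vector cells. Their log2 fold changes were 0.09, -0.01 and -0.04, none of which passed (adjusted p = 0.657 to 0.969, limma). The groups overlapped at each of the 3, and the 95% intervals together ran from -0.21 to 0.25.

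ZO-1 (TJP1) had the smallest p of the members. At 202011_at its signals were 10.76, 10.60 and 10.84 in SH3GL2 cells, against 10.96, 10.90 and 10.95 in empty vector cells. At 214168_s_at they were 7.25, 7.23 and 7.32 in SH3GL2 cells, against 7.47, 7.42 and 7.55 in empty vector cells. Every SH3GL2 value lay below every empty vector value at both probe sets (two-sided exact permutation test, p = 0.1 for each, the smallest that 3 arrays against 3 allow). The log2 fold changes were -0.20 (standard error 0.07, 95% interval -0.35 to -0.06) and -0.21 (standard error 0.08, 95% interval -0.39 to -0.04), or ratios of 0.869 and 0.863. Neither passed over all probe sets (adjusted p = 0.122 and 0.205, limma). Their adjusted p ranged from 0.0785 to 0.394 over all alternative fits. Without SH3GL2 replicate 2, the lowest array at 202011_at, its log2 fold change was -0.14.

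With the shared CTNND1 probe sets set aside, of which 208407_s_at was at 0.09, all 8 member probe sets above the reference had a log2 fold change below 0, with a median of -0.12. This sign held for the 8 after quantile normalization, after centring each array on its median and without each array in turn. Among all 11674 probe sets above the reference 46.1% had one, with a median of 0.01. Several of the 8 belong to the same gene, so they are not independent. Over the 14 members the median log2 fold change was -0.05 and the range -0.21 to 0.10, beside a median of 0.01 over all probe sets. The arrays of the groups did not overlap at 5 of the 14, or 35.7%, beside 19.4% of all probe sets. Of these 5, CDH1 201130_s_at was higher in SH3GL2 cells and near the reference median. The others, both TJP1 probe sets among them, were lower. SH3GL2 replicate 2 was the lowest of the SH3GL2 arrays at CDH2 203440_at and at both TJP1 probe sets.

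**Figure D2:**
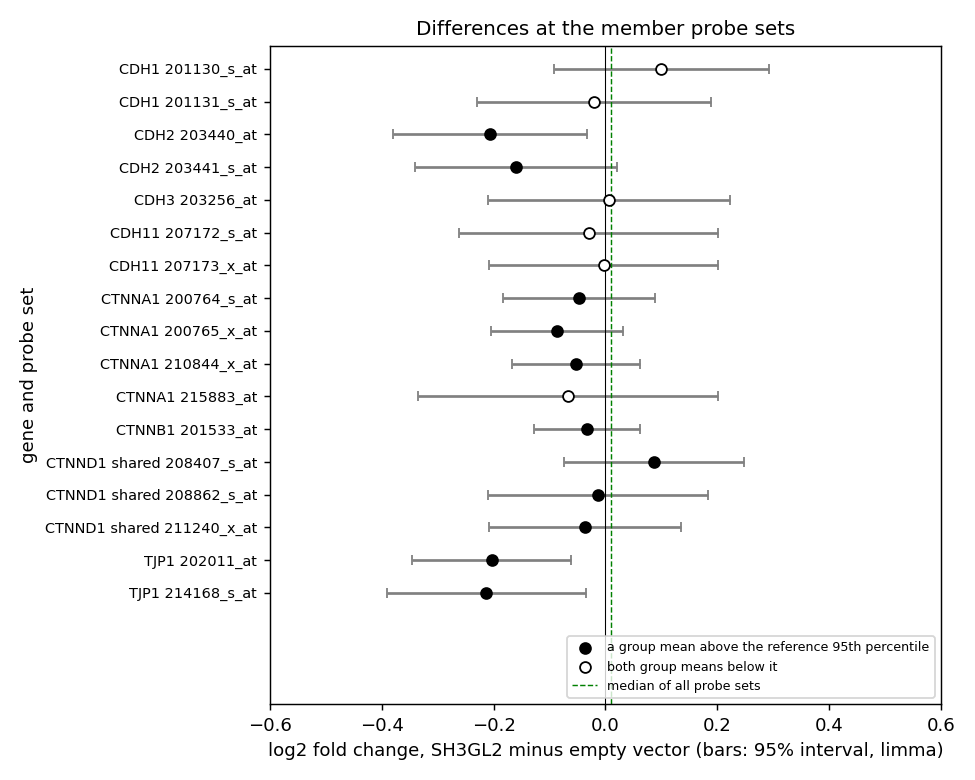
Log2 fold change (horizontal axis, SH3GL2 minus empty vector) of the 14 member and 3 shared CTNND1 probe sets, with bars for the 95% interval in limma before adjustment for multiple testing. Filled points have a group mean above the reference 95th percentile, the dashed line at 0.01 is the median of all probe sets, and the intervals of CDH2 203440_at and both TJP1 probe sets lie below 0 although none passed after adjustment over 22215 probe sets.

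The 5 probe sets of other single genes above the reference whose signals followed TJP1 202011_at most closely over the 6 arrays were SNX24 (Pearson r = 0.995), DDIT4 (0.994), INPP5B (0.990), QKI (0.990) and CCDC28A (0.989). They were ranked among 10391 probe sets, and the 6 points share the 2 groups, so this is a description without a test. Their log2 fold changes ran from -0.08 for CCDC28A to -0.35 for INPP5B, and of the 5 only INPP5B passed limma (adjusted p = 0.0483).

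Several other cadherins changed between the groups. Of 47 probe sets for 29 other genes of the cadherin superfamily, 7 (14.9%) fell, 1 (2.13%) rose and 39 did not pass. Over all probe sets 2.18% were lower and 1.99% higher. Of the 7 that fell, 4 are of CDH6 and so are not independent. The analysis of variance called 2 of the 47 lower, 214803_at of CDH6 and the PCDH9 probe set, and 0 higher. CDH6, the K-cadherin of kidney and several carcinomas, passed as lower on 4 of its 5 probe sets, but only 1 of these 4, 214803_at, was above the reference, and that in empty vector cells alone. CDH18, a cadherin known mainly from the nervous system, the protocadherin gene PCDH9 (1 of 2 probe sets) and FAT4, a giant cadherin of planar polarity and Hippo signaling, also fell. The probe set that rose was 1 of 2 for DCHS1, whose protein is the ligand of FAT4. FAT4, DCHS1 and 2 of the CDH6 probe sets (205533_s_at and 210602_s_at) are outside the rule for named genes and were chosen once their values had been seen.

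At 214803_at CDH6 had 5.98, 6.02 and 6.01 in SH3GL2 cells, against 6.94, 7.02 and 7.17 in empty vector cells. This made a log2 fold change of -1.04, with a standard error of 0.09 and an adjusted p of 2.72e-05 in limma, and of the group means only that of the empty vector cells was above the reference. At 205532_s_at it had 5.42 ± 0.14 in SH3GL2 cells and 6.42 ± 0.18 in empty vector cells (SD, n = 3 each), both below the reference percentile. The other CDH6 probe sets that passed were not above the reference in either group: 205533_s_at had means of 3.90 in SH3GL2 cells and 4.48 in empty vector cells, both under the reference median, and 210602_s_at had 5.29 in SH3GL2 cells and 5.67 in empty vector cells. The remaining one had 6.59 in SH3GL2 cells and 6.92 in empty vector cells (adjusted p = 0.0946). The call at 210602_s_at was lost without any 1 of the 6 arrays (adjusted p = 0.0642 to 0.139).

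CDH18 had 8.32, 8.41 and 8.55 in SH3GL2 cells, against 9.09, 9.26 and 9.24 in empty vector cells, above the reference in both groups. CDH18 thus differed by -0.77 on the log2 scale (standard error 0.08) and passed limma with an adjusted p of 1.12e-04. PCDH9 had 8.99, 9.06 and 9.05 in SH3GL2 cells, against 9.69, 9.80 and 9.76 in empty vector cells, which is -0.72 on the log2 scale (adjusted p = 3.13e-05). The other PCDH9 probe set had -0.36 (adjusted p = 0.0618). FAT4 had a mean of 6.64 in SH3GL2 cells and 7.28 in empty vector cells (log2 fold change -0.64, adjusted p = 0.00194), above the reference in empty vector cells alone. DCHS1 had 6.56, 6.29 and 6.83 in SH3GL2 cells, against 5.32, 5.67 and 5.50 in empty vector cells, which is 1.06 on the log2 scale (adjusted p = 4.70e-04). Both DCHS1 means lay below the reference percentile, and its other probe set had 0.36 (adjusted p = 0.126).

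The CDH1 repressors ZEB1, TWIST1 and SNAI2, all transcription factors, fell in SH3GL2 cells, while the CDH1 signal stayed at the reference level. Of 29 probe sets for 9 repressor genes, 5 (17.2%) fell, 0 rose and 24 did not pass. Over all probe sets 2.18% were lower and 1.99% higher. Of the 5 that fell, 3 are of ZEB1 and so are not independent. At an unadjusted p under 0.05 there were 6 higher and 7 lower of the 29, beside 1831 higher and 1693 lower of all 22215 probe sets. The analysis of variance called 0. The 6 higher were all of TCF3 or TCF4, at log2 fold changes of 0.19 to 0.21, and none passed limma. Another TCF3 probe set was lower before adjustment (-0.23, adjusted p = 0.125). TCF3 and TCF4 are outside the rule for named genes. All 3 probe sets of ZEB1 fell, with log2 fold changes of -0.74, -0.67 and -0.62. At 212764_at ZEB1 had 10.14, 9.72 and 10.07 in SH3GL2 cells, against 10.52, 10.60 and 10.66 in empty vector cells. TWIST1 had 7.22, 7.48 and 7.37 in SH3GL2 cells, against 7.98, 8.04 and 8.07 in empty vector cells, which is -0.67 on the log2 scale (adjusted p = 5.27e-04, limma). SNAI2, encoding Slug, fell by 0.37 on the log2 scale (adjusted p = 0.00555) and is outside the rule for named genes. SNAI1, encoding Snail and likewise outside it, had 6.56 in SH3GL2 cells and 6.40 in empty vector cells, below the reference percentile (adjusted p = 0.547).

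**Figure D3:**
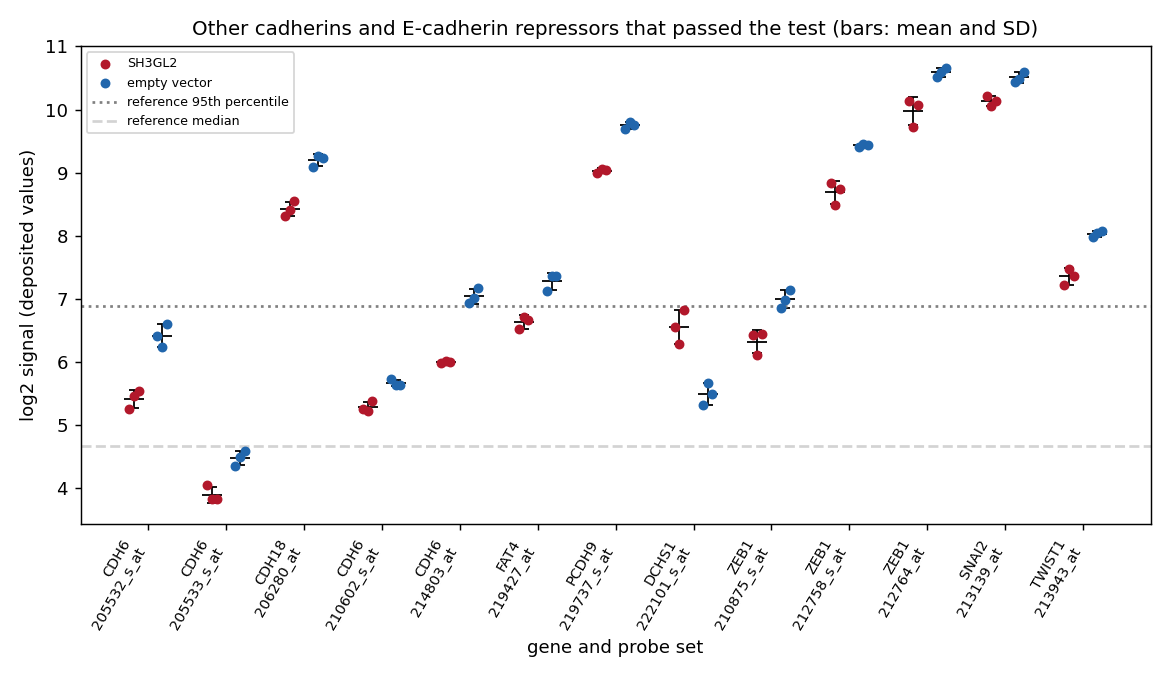
Log2 signal (vertical axis, deposited values) of the other cadherin and the repressor probe sets that passed limma, in SH3GL2 cells (red) and empty vector cells (blue), with 1 point per array and bars for mean and SD (n = 3). The groups do not overlap at any of them, DCHS1 is the only one that is higher in SH3GL2 cells, and CDH6 205533_s_at lies below the dashed line of the reference median in both groups.

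ZEB1 and the Snail proteins bind the E-box letters CACCTG, or CAGGTG on the other strand. Promoter windows of 250 bases before annotated starts (RefSeq, GRCh38.p14) were searched on both strands for these letters, since ZEB1 and SNAI2 differed between the groups and 2 of the expressed junction genes, TJP1 and CDH2, had the lowest p of the members. Windows were found for CDH2, CDH4, CTNNA1, CTNNB1 and TJP1, and not for CDH1, CDH3, CDH11, CDH13 and CTNND1. The letters were in 2 of the 13 windows, or 15.4%, beside 17.5% of all 35116 windows. The 100 bases before the first start of each gene are shown 5′ to 3′ on the minus strand, at chr15:29969050-29969149 for TJP1 and chr18:28177131-28177230 for CDH2, with the E-box in capitals.
TJP1: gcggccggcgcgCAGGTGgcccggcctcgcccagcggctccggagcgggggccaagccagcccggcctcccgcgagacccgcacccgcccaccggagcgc
CDH2: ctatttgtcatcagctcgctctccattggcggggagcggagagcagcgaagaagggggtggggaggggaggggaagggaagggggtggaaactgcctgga
The match in TJP1 begins 88 bases before that start, and the other 3 TJP1 windows and both CDH2 windows held none. A match of letters is no evidence of binding, and no factor binding was measured here. ZEB1, SNAI2, TJP1 and CDH2 were all lower in SH3GL2 cells, TJP1 and CDH2 without passing, and a link between them was not tested.

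Over all 9 lists of other junction genes, the cadherins and repressors above included, 233 probe sets of 112 genes were tested. Of these 18 (7.73%) fell and 2 (0.858%) rose, beside 2.18% lower and 1.99% higher over all probe sets. The 18 belong to 11 genes, so they are not independent, and the lists were chosen with earlier results of these data known. The median log2 fold change was -0.02, beside 0.01 over all probe sets. None of 14 probe sets for other catenins and armadillo partners passed limma or the analysis of variance. At an unadjusted p under 0.05, where 1831 of all 22215 probe sets were higher and 1693 lower, 0 of the 14 were higher and 1 lower. Of these, CTNNAL1, encoding a relative of alpha-catenin, had means of 11.21 in SH3GL2 cells and 11.23 in empty vector cells, and PKP4, encoding plakophilin 4, had 10.04 in SH3GL2 cells and 9.95 in empty vector cells at 201928_at. The probe set that was lower before adjustment is another of PKP4, which had 8.78 in SH3GL2 cells and 9.02 in empty vector cells, so the PKP4 log2 fold changes differ in sign, and none passed. For the nectins, which seed adherens junctions beside the cadherins, together with PVR and AFDN, encoding afadin, 1 of 13 probe sets (7.69%) fell. It was that of NECTIN3 (8.44 in SH3GL2 cells and 8.79 in empty vector cells, adjusted p = 0.0455). That call was lost with each array centred on its median (adjusted p = 0.0521) and when any array other than empty vector replicate 1 was left out (adjusted p = 0.0960 to 0.170).

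Of 30 probe sets for proteins that tie junctions to actin, 2 fell, both of EZR, encoding the membrane linker ezrin, with log2 fold changes of -0.44 and -0.40 on 2 of its 5 probe sets. Of 25 probe sets for cadherin turnover 3 (12%) fell. IQGAP1, a scaffold that binds beta-catenin, was lower on 2 of 3 probe sets by log2 fold changes of -0.57 and -0.35, the second of which lost its call without SH3GL2 replicate 3 or empty vector replicate 2 (adjusted p = 0.0506 and 0.0508). ARF6, a GTPase of cadherin endocytosis, was lower on 1 of 3 probe sets (-0.43, adjusted p = 0.0386) and lost that call when any array other than empty vector replicate 1 was left out (adjusted p = 0.0673 to 0.130). Of 36 probe sets for beta-catenin turnover and transcription, 1 (2.78%) rose, near the 1.99% higher over all probe sets, and 0 fell. It was that of GSK3B, the kinase that marks beta-catenin for destruction. It had 9.15, 9.16 and 9.25 in SH3GL2 cells, against 8.86, 8.84 and 8.89 in empty vector cells (log2 fold change 0.32, adjusted p = 0.0149). Without SH3GL2 replicate 3, empty vector replicate 1 or empty vector replicate 2 the GSK3B call was lost (adjusted p = 0.0516 to 0.105).

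No probe set of the partners of ZO-1 in tight junctions (19 probe sets) or of epithelial identity (20 probe sets) passed limma. The analysis of variance called 0 in either list. Without adjustment, 6 of the ZO-1 partners were higher and 0 lower at p under 0.05 in limma, and 2 of the epithelial probe sets were higher and 1 lower. Of all 22215 probe sets 1831 were higher and 1693 lower at that p. The 6 were of YBX3, GJA1, TJP3, CLDN1 and PARD3, with more than 1 of YBX3, so they are not independent. GJA1, TJP3, CLDN1 and PARD3 are outside the rule for named genes. The claudin genes CLDN3, CLDN4 and CLDN7, and EPCAM, encoding an epithelial adhesion protein, were below the reference in both groups, at means of at most 6.07 in SH3GL2 cells and 6.08 in empty vector cells. CLDN1, also below the reference, had 5.41 in SH3GL2 cells and 5.08 in empty vector cells (adjusted p = 0.149). YBX3, a ZO-1 binding transcription factor, had means of 13.10 in SH3GL2 cells and 12.92 in empty vector cells at 201160_s_at (adjusted p = 0.104). The keratin genes KRT18 and KRT8 were above the reference. KRT18 had 11.98 in SH3GL2 cells and 11.73 in empty vector cells (adjusted p = 0.115), and KRT8 had 9.65 in SH3GL2 cells and 9.75 in empty vector cells (adjusted p = 0.634).

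**Figure D4:**
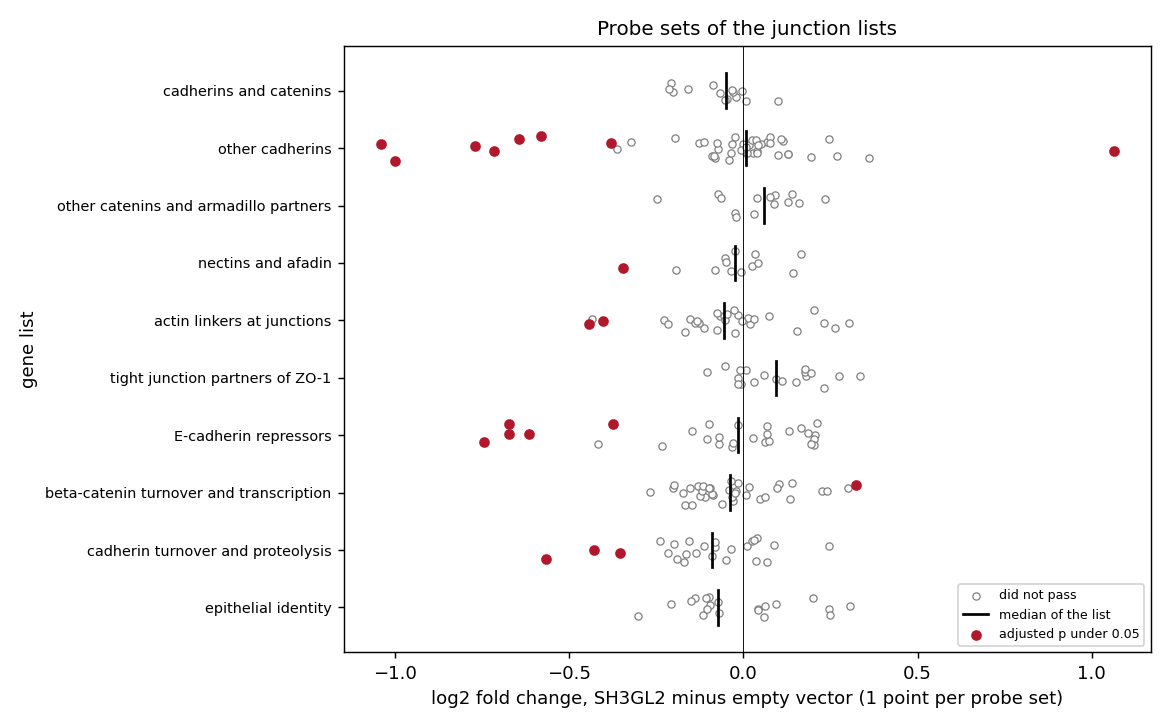
Log2 fold change (horizontal axis, SH3GL2 minus empty vector) of each probe set in the 9 junction lists and of the 14 members in the top row, with filled points for those with an adjusted p under 0.05 and a black bar at each list's median. The members lie between -0.21 and 0.10 with no filled point, whereas the other cadherins reach -1.04 and 1.06.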

How the data were processed

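The values deposited by the authors are log2 signals per probe set of Affymetrix U133A 2.0 arrays, scanned with GCOS software. The submitters' processing notes name MAS5 without a version. Any scaling between arrays is not given in the sources used here. The array medians were 6.97 to 7.02. Values were used as deposited. Of 22277 probe sets 62 controls were left out. The annotation gave 1 symbol to 19064 probe sets, several to 1043 and none to 2108, and 0 symbols needed an update from RefSeq names (GRCh38.p14).

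The 3 SH3GL2 and 3 empty vector arrays were compared by limma 3.58.1 in R 4.3.3. The moderated two-sided test used a prior variance that follows mean intensity, and p-values were adjusted by Benjamini-Hochberg over all 22215 probe sets. The paper names analysis of variance among the tests of the study, without saying which served the arrays. Figures used Python 3.11.15 and matplotlib 3.10.9. The fit was tested on simulated data. The members, the gene lists and the 50 reference genes with a probe set were chosen with earlier results of these data known. Named genes are every member, SH3GL2, up to 4 called probe sets per list by adjusted p (otherwise up to 2 by mean) and the 5 probe sets most like the leading member. Alternatives were quantile normalization, median centring, 16 added before the logarithm, a floor at the reference median, only probe sets above that median, no intensity trend, a robust prior, an analysis of variance, a replicate block, an adjusted p under 0.01, the mean of a gene's probe sets and leaving out each array. The number of arrays limits the precision.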

Additional observations from a re-analysis of the deposited data

How the results depend on the processing

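The member counts of 0 higher and 0 lower were the same in every alternative, and none of 267 alternative fits of single member or shared CTNND1 probe sets changed a call. Of the 233 other junction probe sets, 2 were higher and 18 lower as reported. The 18 lower were 2 in the analysis of variance and 5 with a floor at the reference median. Where the probe sets of each gene were averaged, which tests fewer features, 9 genes were lower, beside the 11 genes of the 18 probe sets. The 2 higher were 0 in the analysis of variance and 1 with an adjusted p under 0.01. Without each array in turn the lower count ran from 14 to 17 and the higher count from 1 (without SH3GL2 replicate 3 or empty vector replicate 2) to 4 (without SH3GL2 replicate 1 or empty vector replicate 3). Of the called junction probe sets only CDH6 205533_s_at had arrays below the floor of 4.67, so the floor left the values of the others unchanged. The cause of their losses with the floor was not tested.

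Of 24 other probe sets named as called, CDH6 214803_at and PCDH9 219737_s_at kept their call in every alternative. The call was lost by 22 in the analysis of variance, by 18 with the floor and by 5 without at least 1 array. Over all probe sets the analysis of variance called 33 higher and 44 lower. The fit with the floor called 136 higher and 160 lower, beside 441 higher and 485 lower as reported. A further 3 that had not passed did so without 1 array: both YBX3 probe sets named by the rule (adjusted p = 0.0433 without empty vector replicate 3 and 0.0496 without empty vector replicate 1) and KRT18 (0.0195 without SH3GL2 replicate 1). CDH6 205533_s_at lies below the floor, so that no difference was left there.

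Replicate numbers were not taken as pairs: residuals of same-numbered arrays correlated at -0.01, 0.13 and 0.15, and for 4 of the 6 arrays the closest residuals were those of the array with the same number. With the replicate number as a block, 0 members were higher and 0 lower, and 3 junction probe sets were higher and 19 lower. Of the named calls the block ended that of CDH6 210602_s_at (adjusted p = 0.0510). TJP1 202011_at came to an adjusted p of 0.0785 and CDH2 203440_at to 0.0801.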
